A study of Mus musculus with 13 samples.

Results

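Matrix metalloproteinases (MMPs) are zinc-dependent proteases that cut collagens, basement membrane proteins and other parts of the extracellular matrix, and tissue inhibitors of metalloproteinases (TIMPs) are the small proteins that block them. The genes described here are 6 MMPs, Mmp2, Mmp3, Mmp9, Mmp13, Mmp14 and Mmp15, and all 4 TIMPs, 10 of the 55487 gene IDs in the count table. They were picked by symbol after their levels in pacemaker cells and atrial muscle were known, so the comparison of those cell types is given for them as a description. The edgeR calls on it are counted beside those of all genes, and nothing is read from them. RNA-seq was made of pacemaker cells (PC) of the sinoatrial node, the region that sets the heartbeat, and of right atrial cardiomyocytes (RACM), the working muscle beside it. All RNA samples came from neonatal mouse hearts of the genotype Hcn4-GFP/Myh6-mCherry, reporters of a pacemaker channel gene and of a cardiac myosin gene, and cells were separated by flow sorting. Each cell type has 3 libraries, numbered p0, p2 and p4 in the titles, each from a pool of 8 to 10 hearts that the labels name a biological replicate. What the p number means is not given in the labels. Sets of 3 values are in the order p0, p2, p4. The series also holds 7 ATAC-seq samples, which were not analysed here.

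Most MMPs are secreted as inactive proenzymes, held shut by a propeptide that another protease must remove. MMP14, which sits in the plasma membrane, is itself opened by the convertase furin and then activates MMP2, and TIMP2 serves in that step as the link between them. In the heart these enzymes are known chiefly from fibroblasts, macrophages and vessel cells, and they take part in the remodelling of matrix during growth and after injury. TIMP3 differs from the other inhibitors in binding to the matrix, and TIMP4 is known for its expression in heart and brain.

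Total counts lay between 18371816 and 22290996 in PC libraries and between 14141151 and 19555932 in RACM libraries. The 5 pacemaker markers summed to values from 3346 to 3429 CPM (counts scaled to the library total) over PC libraries and to values from 66.3 to 91.1 CPM over RACM libraries. The 8 cardiomyocyte markers summed to values from 111412 to 119119 CPM over PC libraries and to values from 71369 to 103264 CPM over RACM libraries. Markers of other cells were present as well. All 12 fibroblast markers averaged at least 1 CPM in both cell types, with sums of 1017, 1120 and 2390 CPM in PC, against 1932, 4200 and 11627 CPM in RACM. In bulk RNA of sorted cells, fewer cells of a type and less RNA per cell cannot be told apart.

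RNA of the 4 TIMPs exceeded that of the 6 chosen MMPs in every library, and by more in PC. Levels of different genes are compared per kilobase of exon (RPKM, from CPM and the exon length in the table). The 4 TIMPs summed to 98.1, 92.0 and 100.9 RPKM in PC, against 74.1, 88.0 and 95.4 RPKM in RACM. The 6 MMPs summed to 26.8, 17.6 and 26.2 RPKM in PC, against 43.9, 59.3 and 92.9 RPKM in RACM. The TIMP sum was therefore 3.66, 5.24 and 3.85 times the MMP sum in PC libraries, against 1.69, 1.49 and 1.03 times in RACM libraries. The PC and RACM ratios did not overlap. The choice of MMPs sets the level of these ratios. With all 23 MMP genes of the table, a sum added after the values were seen, the MMPs came to 42.2, 32.1 and 39.7 RPKM in PC, against 60.6, 80.7 and 124 RPKM in RACM. The TIMP sum was then 2.32, 2.87 and 2.54 times the MMP sum in PC, against 1.22, 1.09 and 0.768 times in RACM. PC and RACM ratios were still apart, and in RACM p4 MMP RNA exceeded TIMP RNA.

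**Figure D1:**
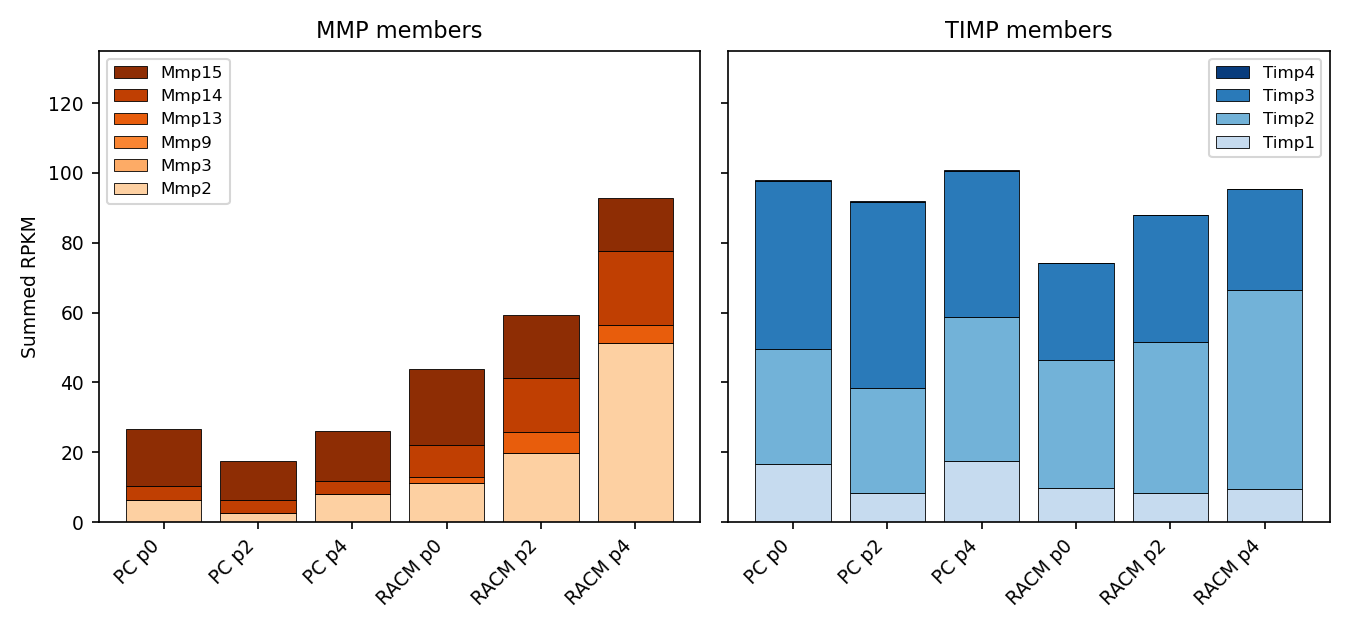
Summed RPKM of the 6 MMPs (left) and the 4 TIMPs (right) in each of 3 PC and 3 RACM libraries, with 1 colour per gene and bars starting at 0. MMP sums lie between 17.6 and 26.8 RPKM in PC and between 43.9 and 92.9 RPKM in RACM, while TIMP sums lie between 92.0 and 100.9 RPKM in PC and between 74.1 and 95.4 RPKM in RACM.

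In PC the order of mean levels per length was Timp3 (47.8 ± 5.84 RPKM, SD, n = 3 here and below), Timp2 (34.6 ± 5.90), Timp1 (14.2 ± 5.09), Mmp15 (13.99 ± 2.64), Mmp2 (5.70 ± 2.75), Mmp14 (3.80 ± 0.217) and Timp4 (0.237 ± 0.049). Among these neighbours, the libraries of Timp1 and Mmp15 overlapped, as did those of Mmp2 and Mmp14. In RACM the order was Timp2 (45.5 ± 10.4 RPKM), Timp3 (31.0 ± 4.63), Mmp2 (27.3 ± 21.1), Mmp15 (18.2 ± 3.32), Mmp14 (15.3 ± 6.04), Timp1 (9.29 ± 0.781) and Mmp13 (4.36 ± 2.25). There the run from Timp3 to Timp1 overlapped from each gene to the next. The leading inhibitor thus differed: Timp3 took 49.2%, 58.1% and 41.4% of TIMP RPKM in PC, against 37.5%, 41.3% and 30.4% in RACM. Timp2 took 33.4%, 32.5% and 40.9% in PC, against 49.2%, 49.1% and 59.6% in RACM. In PC p4 Timp3 and Timp2 were thus nearly level. The exon length of Timp3 includes bases shared with another gene, Syn3 (21.3%), where reads counted without strand cannot be told apart. The RPKM of Timp3, its share and its rank beside Timp2 carry that limit, as do the TIMP sums. Among the 6 MMPs the leading protease in PC was Mmp15, with 60.9%, 63.3% and 55.5% of their sum, against 49.5%, 30.2% and 16.3% in RACM. Its share of all 23 MMP genes was smaller. In PC Mmp15 was at 16.3, 11.1 and 14.5 RPKM, where the 23 genes summed to 42.2, 32.1 and 39.7 RPKM. In RACM it was at 21.7, 17.9 and 15.1 RPKM, where they summed to 60.6, 80.7 and 124 RPKM. Mmp11, not a member and so not in these orders, averaged 8.49 RPKM in PC and 9.98 RPKM in RACM.

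The gelatinases, which degrade denatured collagen and the collagen of basement membranes, are MMP2 and MMP9. Mmp2 (ENSMUSG00000031740, mm10 chromosome 8 from 92827291 to 92853420, plus strand) stood at 21.5, 9.03 and 27.1 CPM in PC, against 37.4, 66.5 and 172 CPM in RACM. Every PC library lay below every RACM library, and RACM p4 was far above the rest. The log2 fold change, PC minus RACM, was -2.26 ± 0.57 (SE, edgeR), and -1.43 without the RACM p4 library. Within each number the difference was -0.78 for p0, -2.81 for p2 and -2.65 for p4, on the scale of log2(CPM + 0.5). Mmp9 (ENSMUSG00000017737, chromosome 2 from 164940780 to 164955850, plus strand), known from neutrophils and other leukocytes, was close to the floor of detection. It had 2, 0 and 0 counts in PC, and 0, 1 and 14 counts in RACM. The RACM over PC ratio from 2 PC and 15 RACM counts was 8.19, with a 95% counting interval from 1.91 to 73.8, and 14 of the 15 RACM counts came from p4. Of 10 neutrophil markers 8 had no count in PC, and none in PC and 1 in RACM averaged at least 1 CPM. The list summed to values from 0.047 to 0.339 CPM over PC libraries and to values from 3.60 to 4.596 CPM over RACM libraries. Csf3r, a receptor of granulocyte growth factor, made up much of the RACM sum, at 0 in all PC libraries, against 1.59, 3.82 and 3.07 CPM in RACM. Ly6g and Retnlg had no count in either cell type, and S100a8, S100a9 and Camp did not exceed 0.358 CPM in any library.

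Both membrane-bound members were lower in PC on average, by unequal amounts. Mmp14 (ENSMUSG00000000957, chromosome 14 from 54431612 to 54445364, plus strand), the activator of MMP2, was at 24.1, 22.4 and 21.5 CPM in PC, against 55.1, 92.3 and 127 CPM in RACM. The PC libraries were nearly alike, and all lay below the lowest RACM library. The log2 fold change was -2.01 ± 0.28, with within-number differences of -1.18, -2.02 and -2.53 for p0, p2 and p4 on the log2(CPM + 0.5) scale. Mmp15 (ENSMUSG00000031790, chromosome 8 from 95352268 to 95375080, plus strand), a close relative that is also anchored in the membrane, was at 87.9, 60.0 and 78.5 CPM in PC, against 117, 96.6 and 81.6 CPM in RACM. Its libraries overlapped, and its log2 fold change was -0.38 ± 0.20. Within each number it was lower in PC, with differences of -0.41, -0.68 and -0.05 on the log2(CPM + 0.5) scale. Per length, Mmp15 was 4.03, 2.96 and 4.03 times Mmp14 in PC, against 2.35, 1.16 and 0.709 times in RACM.

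**Figure D2:**
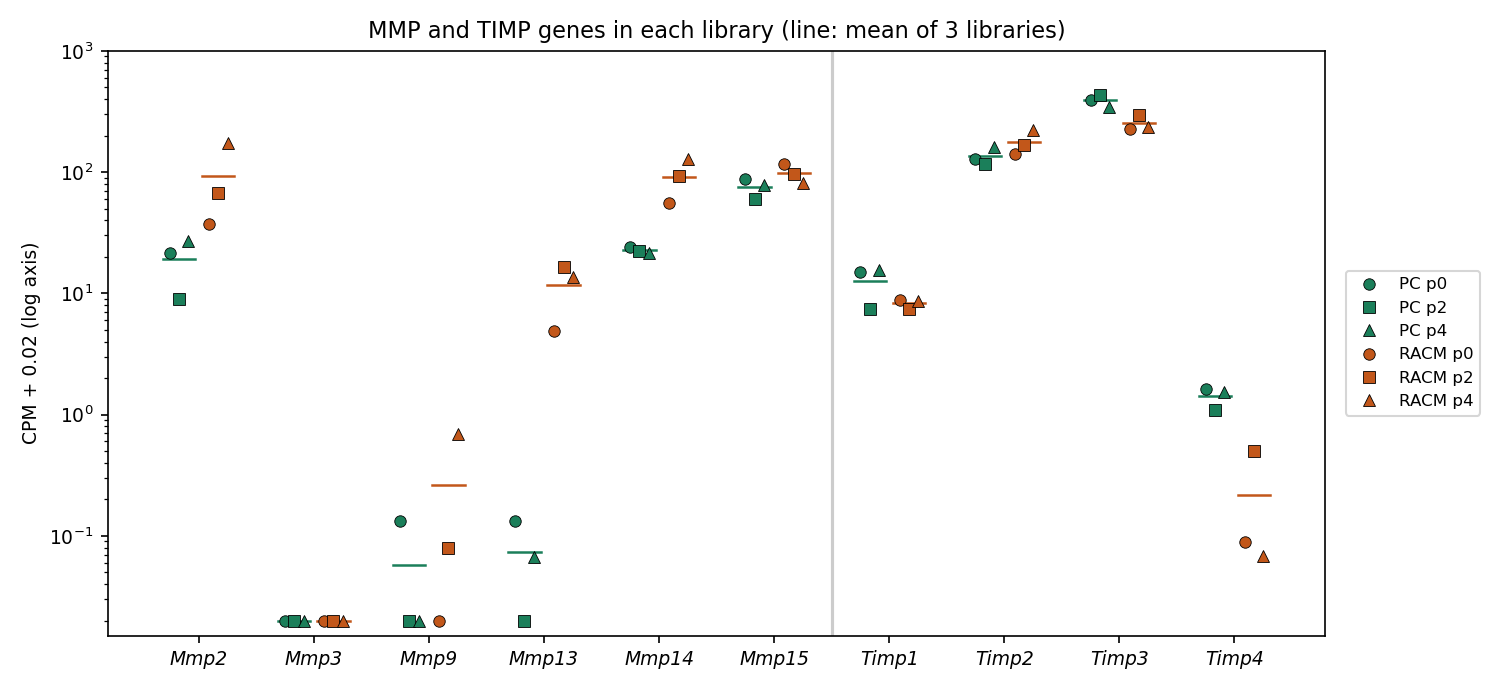
CPM + 0.02 of each member on a log axis, with 1 point per library (circle p0, square p2, triangle p4; green PC, orange RACM) and a line at the mean of 3 libraries. Mmp2, Mmp13 and Mmp14 are lower in every PC library than in any RACM library, Timp3 and Timp4 are higher in every PC library, and Mmp3 sits at 0 in all.

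Mmp13 encodes a main interstitial collagenase of rodents, an enzyme that cuts intact fibrillar collagen. It lies on chromosome 9 from 7272514 to 7283331 (ENSMUSG00000050578, plus strand) and had 2, 0 and 1 counts in PC, against 71, 275 and 284 counts in RACM. That is 0.111, 0 and 0.047 CPM in PC, against 4.89, 16.4 and 13.6 CPM in RACM. RACM p0 was the lowest RACM library, and still far above every PC library. From 3 counts in PC and 630 in RACM, the RACM over PC ratio was 229, with a 95% counting interval from 78.1 to 1115, and no fitted fold change is quoted. The gene opens a cluster of 10 MMP genes that runs to position 7699585. Of these, 5 had no count in any library, among them Mmp3 (ENSMUSG00000043613, 7445822 to 7455975, plus strand), which encodes stromelysin, a protease of broad range that also activates other MMPs. For Mmp3, 3 counts would have been 0.141 to 0.169 CPM in PC and 0.144 to 0.207 CPM in RACM, so a level below that was not detectable at this depth. The next gene of the cluster, Mmp12, the macrophage elastase, was at 0.612, 0 and 0.566 CPM in PC, against 1.45, 9.61 and 6.05 CPM in RACM. Over the whole cluster PC libraries held 31 counts and RACM libraries 943.

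The stretches before the starts of Mmp13 and Mmp3 are shown because the genes lie in 1 cluster yet of the pair only Mmp13 had counts, and those of Mmp14 and Timp4 to set a protease that was lower in PC and an inhibitor that was higher beside them. Each gives the 250 bases before the RefSeq start (build GRCm38.p6), 5′ to 3′ on the gene's strand, at chr9:7272264-7272513, chr9:7445572-7445821, chr14:54431348-54431597 and, on the minus strand, chr6:115252206-115252455. Capitals mark matches on either strand to the AP-1 motif TGANTCA, which reads the same on both strands, the TATA motif TATAAA and the GC box GGGCGG.
Mmp13: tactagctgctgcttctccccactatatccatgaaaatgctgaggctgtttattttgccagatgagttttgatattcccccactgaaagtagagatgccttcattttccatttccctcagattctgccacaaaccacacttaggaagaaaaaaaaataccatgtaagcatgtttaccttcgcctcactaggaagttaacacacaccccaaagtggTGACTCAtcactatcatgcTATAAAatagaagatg
Mmp3: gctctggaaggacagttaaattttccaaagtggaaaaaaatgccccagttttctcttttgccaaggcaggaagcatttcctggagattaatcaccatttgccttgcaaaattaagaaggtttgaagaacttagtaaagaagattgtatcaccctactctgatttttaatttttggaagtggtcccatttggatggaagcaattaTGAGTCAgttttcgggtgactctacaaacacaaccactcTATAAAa
Mmp14: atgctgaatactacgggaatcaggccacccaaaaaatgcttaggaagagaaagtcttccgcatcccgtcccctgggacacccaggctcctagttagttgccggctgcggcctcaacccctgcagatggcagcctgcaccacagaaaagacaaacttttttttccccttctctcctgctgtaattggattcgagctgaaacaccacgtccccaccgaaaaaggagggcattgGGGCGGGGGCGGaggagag
Timp4: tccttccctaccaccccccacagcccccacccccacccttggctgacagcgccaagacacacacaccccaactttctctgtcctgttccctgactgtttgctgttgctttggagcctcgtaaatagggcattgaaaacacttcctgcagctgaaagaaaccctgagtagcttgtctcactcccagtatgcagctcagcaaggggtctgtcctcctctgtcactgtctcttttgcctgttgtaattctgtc
AP-1 is a dimer of Fos and Jun proteins that is known to act on several MMP promoters. Among the 8 members with such a stretch in the RefSeq table, TGANTCA stood in those of Mmp13 and Mmp3 alone, and TATAAA likewise. Over all 32851 stretches of the table, 6.75% held TGANTCA, 12.4% TATAAA and 32.7% GGGCGG. The GC box was found in 5 of the 8, those of Mmp14, Mmp15, Timp1, Timp2 and Timp3. The PEA3 motif AGGAAG, a site of ETS factors, was found in 6 of the 8 (Mmp3, Mmp13, Mmp14, Timp1, Timp3 and Timp4) and in 29.5% of all stretches.

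The inhibitors differed among themselves as well. Timp3 (ENSMUSG00000020044, chromosome 10 from 86300372 to 86349506, plus strand) had the highest count of all members in every library. It was at 393, 435 and 340 CPM in PC, against 226, 296 and 236 CPM in RACM. All PC libraries lay above all RACM libraries. The log2 fold change was 0.62 ± 0.17, and the within-number differences of 0.79, 0.56 and 0.53 were close to each other. Timp3 lies inside Syn3, a synapsin gene on the other strand, and 21.3% of its exon bases are shared with it, where reads counted without strand cannot be told apart. Syn3 itself was at 15.0, 20.7 and 23.8 CPM in PC, against 8.27, 10.9 and 6.72 CPM in RACM.

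Timp4 (ENSMUSG00000030317, chromosome 6 from 115241892 to 115252205, minus strand) was low throughout. It had 29, 19 and 32 counts in PC, against 1, 8 and 1 counts in RACM. In CPM this was 1.61, 1.07 and 1.51 in PC, against 0.069, 0.477 and 0.048 in RACM, and the groups did not overlap. The log2 fold change of 2.79 ± 0.94 rested on 10 RACM counts, 8 of them in p2, and was 4.45 without RACM p2 and 2.21 without both p4 libraries. Timp4 lies inside Syn2, another synapsin gene, with 1.53% of its exon bases shared. Syn2 was at 14.6, 9.93 and 6.50 CPM in PC, against 0.551, 0.358 and 0.336 CPM in RACM, higher in PC as Timp4 was. Markers of neurons and glia, which use synapsins, summed to 65.2, 91.5 and 72.5 CPM in PC, against 6.89, 10.4 and 9.84 CPM in RACM, with Chat at 0 in RACM. The part of Syn2 or of these cells in the level of Timp4 was not tested.

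Timp1 and Timp2 overlapped between the cell types. Timp2 (ENSMUSG00000017466, chromosome 11 from 118301069 to 118355740, minus strand), the partner of MMP14 in the activation of MMP2, was at 128, 117 and 161 CPM in PC, against 142, 168 and 221 CPM in RACM. PC p4 lay above RACM p0, and the log2 fold change was -0.39 ± 0.21. Within each number it was lower in PC, with differences of -0.15, -0.53 and -0.46 on the log2(CPM + 0.5) scale. Relative to Mmp14, Timp2 was far more abundant in PC: per length it was 8.10, 7.96 and 11.4 times Mmp14 in PC, against 3.94, 2.79 and 2.67 times in RACM. Timp1 (ENSMUSG00000001131, chromosome X from 20870166 to 20874735, plus strand), an inhibitor of secreted MMPs that is weak against MMP14, was at 14.9, 7.45 and 15.6 CPM in PC, against 8.75, 7.46 and 8.54 CPM in RACM. PC p2 was at the level of RACM while PC p0 and p4 were higher, and the log2 fold change was 0.62 ± 0.34. Its within-number differences were 0.74, -0.0021 and 0.83.

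Of the 10 members, 8 passed the filter on low counts, and Mmp3 and Mmp9 did not. Mmp13, with 2, 0 and 1 counts in PC, was kept through RACM alone. Timp4, with 1, 8 and 1 counts in RACM, was kept through PC alone. A gene kept in that way has its groups apart by the filter itself. Both are among the members counted as apart in the next sentence, and Mmp13 is also among the edgeR calls. PC and RACM libraries were fully apart for 5 of the 8, with 3 lower and 2 higher in PC, where 26.9% of all 18015 genes tested did not overlap, 13.4% with every PC library lower and 13.5% with every PC library higher. In the edgeR fit over all genes 3 of the 8, Mmp2, Mmp13 and Mmp14, had an adjusted p below 0.05, all lower in PC, where 7.27% of all genes passed, 3.57% as lower and 3.69% as higher. With the p number as a replicate block Timp3 passed too, as higher, where 11.6% of all genes passed. Mmp13 and Mmp14 passed in all 14 alternatives, while Mmp2 did not in 7 of them, which were limma-voom, the runs without any 1 of the PC libraries, those without RACM p2 or RACM p4, and the run without both p4 libraries. Timp3 passed in 3 of the 14, those with the replicate block, with no filter on low counts and with DESeq2. The members were chosen with this contrast known, so nothing is read from these counts. The median log2 fold change of the 8 was -0.39, against 0.0064 over all genes tested.

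The other genes of the system were taken from lists of further MMPs, of activators and cofactors, of the related ADAM and ADAMTS proteases, of matrix substrates and of the synapsin genes that hold TIMP genes. Over these lists 75 of 90 genes were tested and 13 passed (17.3%, against 7.27% of all genes), 4 higher and 9 lower in PC. With the replicate block 36 passed, 4 higher and 32 lower, where 11.6% of all genes passed. Without any 1 library the count of 13 became 4 to 25. The lists were chosen with earlier results of these data known, so nothing is read from these shares. Of 17 further MMPs 8 were tested, and Mmp23 fell, at 4.45, 3.84 and 4.43 CPM in PC, against 6.82, 14.9 and 29.0 CPM in RACM (edgeR log2 fold change -2.00 ± 0.48, adjusted p = 0.0412). That call was lost in 7 of 14 alternatives, among them each run without a PC library or without RACM p2 or p4 (adjusted p from 0.0928 to 0.189 where lost). Mmp12 missed the threshold (log2 fold change -3.83 ± 1.05, adjusted p = 0.0619), with values from 0.00056 to 0.238 over its alternatives. The stromelysin-type Mmp11, at 28.1, 20.3 and 22.4 CPM in PC, against 29.6, 24.8 and 28.8 CPM in RACM, and the membrane-bound Mmp16, at 21.0, 27.5 and 19.3 CPM in PC, against 8.27, 21.4 and 46.4 CPM in RACM, did not pass either (adjusted p = 0.59 and 0.888). Mmp17, Mmp19, Mmp21 and Mmp28 stayed below 5 CPM in every library and did not pass (adjusted p from 0.475 to 0.937), and 28.3% of the exon bases of Mmp19 and 12.03% of those of Mmp28 are shared with overlapping genes.

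Among activators and cofactors 1 of 18 tested genes rose and 3 fell (1 and 8 with the replicate block), with a median log2 fold change of -1.10. Furin, the convertase that opens MMP14, rose: it was at 193, 187 and 156 CPM in PC, against 77.3, 61.4 and 61.6 CPM in RACM (log2 fold change 1.42 ± 0.17, edgeR adjusted p = 0.0017). The groups were well apart, opposite in direction to Mmp14. Cd44, a hyaluronan receptor that docks MMPs at the cell surface, fell to 25.6, 14.7 and 19.1 CPM in PC, against 82.4, 96.3 and 113 CPM in RACM (log2 fold change -2.30 ± 0.24, adjusted p = 8.9e-04). Thbs1, a matricellular protein that takes part in MMP clearance, fell as well, at 26.9, 26.7 and 49.4 CPM in PC, against 110, 188 and 327 CPM in RACM (log2 fold change -2.60 ± 0.41, adjusted p = 0.0071). Furin, Cd44 and Thbs1 passed in all 14 alternatives. Itgav, an integrin chain, fell by less (log2 fold change -0.87 ± 0.21, adjusted p = 0.041), a call lost in 6 of the 14, among them each run without a PC library or without RACM p2 or p4 (adjusted p up to 0.163). Reck, a membrane-anchored inhibitor of MMPs, was at 10.6, 16.2 and 13.2 CPM in PC, against 8.34, 11.7 and 16.1 CPM in RACM, and Bsg, an inducer of MMPs, was at 393, 282 and 437 CPM in PC, against 339, 256 and 290 CPM in RACM, and neither passed (adjusted p = 0.85 and 0.408).

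**Figure D3:**
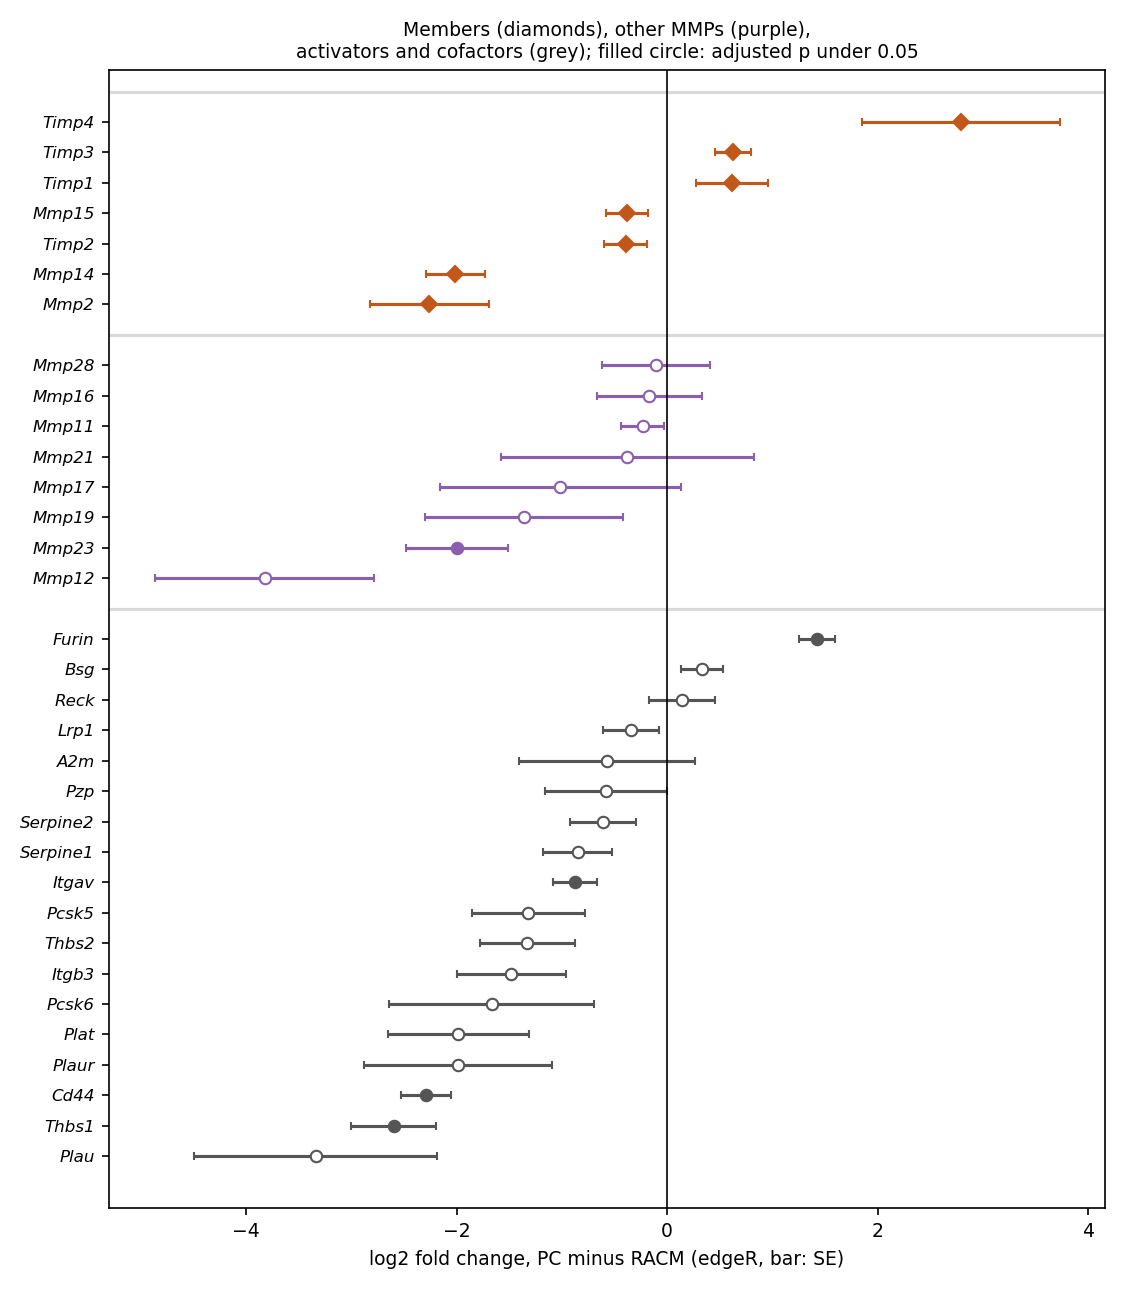
log2 fold change, PC minus RACM, with its SE (edgeR) for 7 members (diamonds, calls not marked), 8 further MMPs (purple circles) and 18 activators and cofactors (grey circles), where filled circles passed at an adjusted p below 0.05. Mmp13 is left out because PC held 3 counts, Furin is the 1 filled circle above 0, and Mmp23, Itgav, Cd44 and Thbs1 are filled below 0.

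Of 23 tested ADAM and ADAMTS proteases 1 rose and 2 fell (1 and 9 with the replicate block). Adamts1, a protease of versican and other proteoglycans, rose to 486, 574 and 320 CPM in PC, against 162, 187 and 218 CPM in RACM (log2 fold change 1.28 ± 0.23, edgeR adjusted p = 0.0129). It no longer passed when PC p0 or RACM p2 was left out (adjusted p = 0.0582 and 0.0633). Adam12 and Adam19 fell (log2 fold changes -2.21 ± 0.55 and -0.66 ± 0.15, adjusted p = 0.0453 and 0.0358), and each lost its call in 7 of 14 alternatives. For Adam12 these were limma-voom, each run without a PC library or without RACM p2 or p4, and the run without both p4 libraries, and for Adam19 each run without any 1 library and without both p4 libraries. Adam17, the sheddase that TIMP3 inhibits, was at 37.6, 43.7 and 33.2 CPM in PC, against 37.1, 39.7 and 52.7 CPM in RACM, and did not pass (adjusted p = 0.689). Of 23 tested substrates 3 passed, all lower: Col4a1, Fn1 and Nid1, which belong to basement membranes and to the fibronectin matrix. With the replicate block 14 passed, all lower. Fn1 was at 119, 84.8 and 227 CPM in PC, against 378, 531 and 1488 CPM in RACM (log2 fold change -2.47 ± 0.54, adjusted p = 0.0272). Col4a1, whose protein is a substrate of the gelatinases, had a log2 fold change of -1.2 ± 0.23 (adjusted p = 0.0183), and Nid1 one of -2.00 ± 0.50 (adjusted p = 0.0452). Fn1 and Col4a1 lost their calls without PC p0 or PC p2, and Nid1 without either of these and without the RACM libraries p2 or p4 in turn (where lost, adjusted p lay from 0.0661 to 0.151 over the 3 genes). Of the synapsin genes Syn2 and Syn3 rose and Syn1 did not pass (log2 fold changes 4.63 ± 0.52, 1.2 ± 0.29 and 1.60 ± 0.62, adjusted p = 0.0013, 0.0409 and 0.177). Syn2 passed in all 14 alternatives, and Syn3 lost its call in 8, upper-quartile scaling, each run without any 1 library and the run without both p4 libraries (adjusted p from 0.0545 to 0.238).

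The p number was not used to choose the members and was tested for them with cell type kept in the model, by an F test over all genes. None of the 8 tested members passed (adjusted p from 0.344 to 0.852, edgeR), and 1 gene of 18015, 0.00555%, passed in all. Before adjustment Mmp2 (edgeR adjusted p = 0.344) and Timp2 (edgeR adjusted p = 0.374) were below 0.05, as were 11.9% of all genes. Mmp2 differed by 1.18 ± 0.46 on the log2 scale between p4 and p0 over both cell types, and by -0.27 ± 0.46 between p2 and p0. Timp2 differed by 0.48 ± 0.16 and 0.06 ± 0.16 in the same order. DESeq2 called Mmp2 (adjusted p = 0.0081) and limma-voom called no member. Whether the number acted differently in PC and RACM was not tested. For Mmp2 the p4 library was the highest of its cell type in both PC and RACM.

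Markers of other cells differed between PC and RACM to unequal degrees. Of 12 tested fibroblast markers 3 passed as lower in PC, and of 12 tested macrophage markers 9 (edgeR, adjusted p below 0.05). Of 10 tested endothelial markers 1 passed as lower, Tek, and of 4 tested epicardial markers none passed. Over all genes 3.57% passed as lower. Macrophage markers, 8 of 12 of which averaged at least 1 CPM in PC and 12 of 12 in RACM, summed to values from 11.5 to 56.0 CPM over PC libraries and to values from 197 to 887 CPM over RACM libraries. Endothelial markers summed to values from 47.5 to 121 CPM over PC libraries and to values from 132 to 191 CPM over RACM libraries, and epicardial markers to values from 2.48 to 12.3 CPM over PC libraries and to values from 12.1 to 90.2 CPM over RACM libraries. The 10 smooth muscle and pericyte markers summed to values from 435 to 718 CPM over PC libraries, most of it Acta2, and to values from 321 to 736 CPM over RACM libraries, but single genes of the list went opposite ways. Of these, 3 passed as higher in PC (Myh11, Cnn1 and Cspg4) and 3 as lower (Pdgfrb, Notch3 and Abcc9). Pdgfrb, a receptor known from pericytes and fibroblasts, was at 7.95, 1.64 and 6.46 CPM in PC, against 19.7, 49.2 and 72.9 CPM in RACM (edgeR adjusted p = 0.0171). Notch3 was at 5.28, 5.64 and 6.13 CPM in PC, against 8.27, 32.2 and 73.4 CPM in RACM (edgeR adjusted p = 0.0346), and Abcc9 at 9.12, 5.76 and 12.7 CPM in PC, against 110.7, 105.6 and 62.2 CPM in RACM (edgeR adjusted p = 8.0e-04). Within RACM, Abcc9 was lowest in p4, where Pdgfrb and Notch3 were highest. Mmp2, Mmp14 and Timp2 were highest in RACM p4, the library with the highest fibroblast and macrophage sums. Set against each 1000 CPM of summed fibroblast markers, a scaling chosen after the values were seen, Mmp2 stood at 21.1, 8.06 and 11.4 CPM in PC, against 19.3, 15.8 and 14.8 CPM in RACM. Mmp14 on the same scale stood at 23.7, 20.0 and 9.01 CPM in PC, against 28.5, 21.97 and 10.9 CPM in RACM. On that scale the PC and RACM libraries of both genes overlapped, which they did not in CPM. Against each 1000 CPM of macrophage markers both were higher in every PC library. There Mmp2 stood at 691, 784 and 485 CPM in PC, against 189, 129.7 and 195 CPM in RACM, and Mmp14 at 775, 1946 and 385 CPM in PC, against 279, 179.8 and 143 CPM in RACM. The direction thus depended on the markers chosen for scaling.

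Mmp13 was lower in PC on either scale. Per 1000 CPM of fibroblast markers it stood at 0.109, 0 and 0.02 CPM in PC, against 2.53, 3.91 and 1.17 CPM in RACM. Per 1000 CPM of macrophage markers it stood at 3.58, 0 and 0.842 CPM in PC, against 24.8, 32.0 and 15.4 CPM in RACM. The groups stayed apart on both scales. MMP13 is also known from cartilage and bone, whose markers summed to values from 20.0 to 24.9 CPM over PC libraries and to values from 13.6 to 45.3 CPM over RACM libraries, with Sox9 the largest term in every library. Of the 8, Ibsp had no count, and Sp7 and Bglap had none in PC and at most 0.179 CPM in RACM. Of the 3 tested, 1 passed, as lower in PC: Spp1, which macrophages also make (edgeR adjusted p = 0.0168). It was near the floor, at 0, 0 and 0.047 CPM in PC, against 1.72, 1.13 and 0.912 CPM in RACM. Runx2 went the other way, at 4.62, 4.12 and 11.8 CPM in PC, against 1.72, 2.33 and 2.40 CPM in RACM. Runx2 and Sox9 did not pass (edgeR adjusted p = 0.096 and 0.459). Timp1, Timp3 and Timp4 were each higher in every PC library than in any RACM library when set against fibroblast markers. Against macrophage markers this held for every tested member but Mmp13. Both marker sums were lower in PC at each number, so genes alike in CPM come out higher in PC on such scales. The part of these cells in the levels of any member was not tested beyond these values.

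**Figure D4:**
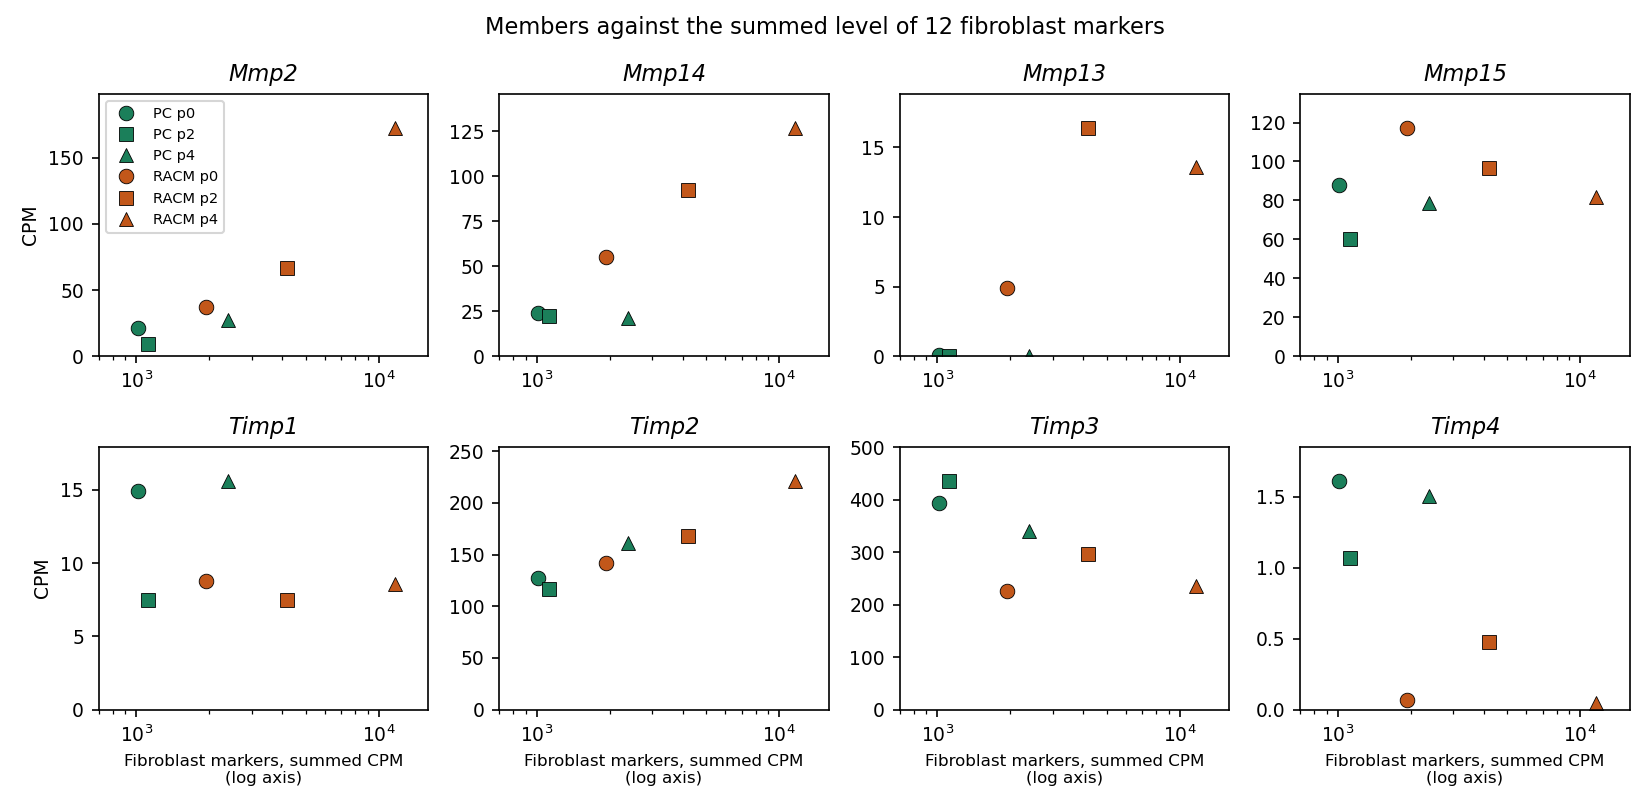
CPM of the 8 tested members (vertical, from 0) against the summed CPM of 12 fibroblast markers (horizontal, log axis), with 1 point per library (circle p0, square p2, triangle p4; green PC, orange RACM). Mmp2 and Timp2 are highest in RACM p4, where the marker sum is 11627 CPM, while Mmp13 lies near 0 in PC p4 (marker sum 2390 CPM) and at 4.89 CPM in RACM p0 (marker sum 1932 CPM).

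Genes with the pattern most like each tested member were taken by Pearson correlation of log2(CPM + 0.5) over the 6 libraries among 8641 named genes with a mean of at least 10 CPM. This is a description, and all points share the same 6 libraries. The correlation takes no account of the size of a difference. As the best of 8641 candidates over 6 points were taken, a high r by itself shows no link between genes. The closest to Mmp2 included Ptbp1, an RNA-binding protein (r = 0.999), and Rgs5, a pericyte marker (0.992). Rgs5 was at 31.8, 11.1 and 30.8 CPM in PC, against 40.1, 65.5 and 184 CPM in RACM, lowest in PC p2 and highest in RACM p4 as Mmp2 was. The closest to Mmp14 were Arrdc3 (0.995), the collagen-binding integrin gene Itga1 (0.994) and Nup153 (0.99). Nup153 differed little in size, at 59.7, 60.5 and 59.0 CPM in PC, against 65.2, 70.8 and 75.0 CPM in RACM. Those of Timp2 included Loxl2, which crosslinks collagen, at 9.18, 5.81 and 28.8 CPM in PC, against 15.6, 48.0 and 140 CPM in RACM (r = 0.996), beside Rasa3 and Kif15. For Mmp13 they were Rab34, Rbm15b and Tmem104, for Mmp15 Tmem176a, Eef1a1 and Qars, and for Timp1 Psmb10, Pfdn6 and Ppp2r1a. For Timp3 they were Vangl1, Herc1 and Slc25a30, and for Timp4 Tmem159, Sidt2 and Prdm6, with r from 0.987 to 0.998 over these 5 members.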

How the data were processed

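The authors deposited 1 table of raw counts of fragments per gene, which per the file headers came from featureCounts 2.0.1 in paired mode, run on exons of mm10 without a strand option. The exon length in bases, the other value used, stands in the same deposited table, and the ATAC-seq samples enter nothing here. Per the submitters' processing notes, reads went through Trimmomatic and HISAT2. RNA of sorted cells was amplified as cDNA before sequencing, per the labels' protocols.

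Of 55487 gene IDs 55141 matched a symbol. Genes passing filterByExpr by cell type (18015) were fitted with edgeR 4.0.16 in R 4.3.3 (TMM scaling, quasi-likelihood tests, Benjamini-Hochberg adjustment, threshold 0.05). CPM use TMM-scaled totals, and RPKM divide them by exon length. The members and gene lists were chosen with earlier results of these data known. Named beside the members are the called genes of each list (at most 3 in each direction), every MMP with at least 1 CPM in a library and the 3 genes most like each tested member. Of the genes these rules name, 1 is not reported here. Genes named besides these (Reck, Bsg, Adam17, Syn1 and single marker genes) were chosen after their values were seen. Deviations from the cell type means correlated by 0.196, 0.278 and 0.266 for p0, p2 and p4, so the numbers were taken to pair the libraries, a choice made from the data, since no label states it. No 2 libraries were near-identical (chi-square per degree of freedom at least 29.5). Ratios of low counts carry exact binomial intervals, which cover counting error only and, like the floor of 3 counts, take amplified reads as independent. Alternatives were other scalings and filters, the replicate block, DESeq2 1.42.0, limma-voom (limma 3.58.1) and each library left out. The fits were tested on simulated data.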

Additional observations from a re-analysis of the deposited data

How the results depend on the processing

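Over all alternatives run, the log2 fold changes of the 8 tested members kept their sign, with ranges over the runs without 1 library from -2.63 to -1.43 for Mmp2, from -2.27 to -1.70 for Mmp14, from -0.51 to -0.23 for Mmp15, from 0.44 to 0.89 for Timp1, from -0.53 to -0.20 for Timp2, from 0.55 to 0.75 for Timp3 and from 2.31 to 4.45 for Timp4. The number of genes called between PC and RACM was 1309, and became 2339 with no filter on low counts, 2082 with the replicate block, 2304 with DESeq2, 734 without both p4 libraries (chosen after seeing the data) and from 511 to 1338 without any 1 library (570 and 763 when PC p0 or PC p2 was left out, 511 and 727 when RACM p2 or RACM p4 was). For the listed genes other than the members 13 became 34, 36 and 22 with no filter, the replicate block and DESeq2, and from 4 to 25 without any 1 library (4 and 5 on leaving out PC p0 or PC p2, and 25, 6 and 7 on leaving out RACM p0, p2 or p4). The p number called 1 gene, against 720 with no filter, 57 with the filter of 5 CPM, 686 with DESeq2, 170 with limma-voom and from 77 to 458 without any 1 library. For members by p number, 0 became 1 (Mmp2) with no filter, with DESeq2 and without PC p0, RACM p0 or RACM p2, a range from 0 to 1 without any 1 library. The cause was not tested. The replicate block was a pairing taken from the data, and among the members it changed the call of Timp3 alone. Depth limits what can be said of Mmp3, Mmp9, Mmp13 in PC and Timp4 in RACM, where each library held at most 14 counts.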
